A study of Homo sapiens with 12 samples.

Results

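The genes described here are 38 protein-coding genes of glycolysis and of the transcriptional response to low oxygen, of 19755 protein-coding genes measured. They were chosen by name and fall into 18 glycolytic enzymes, 7 genes for transport and regulation of glycolysis and 13 other hypoxia genes. RNA was sequenced from MOLM13, a human acute myeloid leukaemia cell line, in cells that stably expressed Cas9, at day 7 after delivery of guide RNAs by lentivirus. The groups were cells with sgRNA1 against YBX1, cells with sgRNA2 against YBX1, and control cells, with 4 libraries in each. The labels call the control vector both empty and non-targeting, so an effect of Cas9 cutting as such and of loss of YBX1 cannot be told apart. All cells had passed blasticidin at 5 µg/ml for Cas9, puromycin at 1 µg/ml for the guide vector and a sort for high red fluorescence. All results come from 1 cell line, and the labels do not say whether the libraries of a group were separate cultures, so that p-values measure only the spread between these libraries.

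Glycolysis breaks glucose down to pyruvate through a chain of cytosolic enzymes, and lactate dehydrogenase then turns pyruvate into lactate. When oxygen is scarce, the transcription factor subunit HIF-1alpha, which is otherwise marked for destruction by prolyl hydroxylases, is stabilised and raises the transcription of most of these enzymes, of glucose transporters and of genes for blood vessel growth and removal of mitochondria. The response is thus controlled mainly through the HIF-1alpha protein, which was not measured here. YBX1 belongs to the cold-shock domain family of RNA-binding proteins.

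Values are regularised log2 counts (rlog), which the authors normalised between libraries and which shrink towards the gene's mean where counts are low. All levels and differences below are on this log2 scale. YBX1 itself had levels of 11.20, 11.38, 11.08 and 11.09 in sgRNA1 libraries and of 11.93, 12.07, 11.83 and 11.89 in sgRNA2 libraries, against 12.91, 12.96, 12.76 and 12.81 in control libraries, in the order of the replicate numbers 1 to 4. It was thus lower in all 8 knockout libraries than in any control, more so with sgRNA1. Of 10 myeloid markers, 8 had a mean level of at least 4, while CD14 and CD68 lay below it. The T cell, erythroid and fibroblast markers all lay below 4, as did the epithelial markers other than KRT8 and KRT18. Depth is unknown, since only rlog values were used, and in bulk RNA fewer cells of a kind and less RNA per cell cannot be told apart.

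HIF binds the core letters ACGTG or GCGTG. These were searched on both strands in the 250 bases before 1 RefSeq start site per gene (GRCh38.p14), where 33 of the 38 genes had an entry. Where a gene had several start sites, only the first listed was used, and the others were not searched. The genes not matched were SLC2A3, BNIP3L, NDRG1, VEGFA and ZNF395. A palindromic CACGTG counts on both strands as overlapping matches. At least 1 core was present in 20 of the 33 promoters (60.6%), against 43.1% of all 27305 promoters and 58.8% of the promoters of genes that passed the expression filter. The form ACGTG alone was present in 39.4% of the members' promoters, against 24.0% of the promoters of genes that passed the filter. A match is a description of these letters and not a binding site. Promoters are shown for the 2 genes that varied most between replicate numbers and had an entry (PFKFB4 and ADM), for BNIP3 as the hypoxia gene with 6 matches, and for LDHA and HK3, the 2 enzymes on which the knockout comparison turns, with the core letters of either strand in capitals. PFKFB4 (chr3:48556804-48557053, reverse strand), ADM (chr11:10304823-10305072, forward strand), BNIP3 (chr10:131981924-131982173, reverse strand), LDHA (chr11:18394313-18394562, forward strand) and HK3 (chr5:176899347-176899596, reverse strand) are given 5′ to 3′ along the gene:
PFKFB4: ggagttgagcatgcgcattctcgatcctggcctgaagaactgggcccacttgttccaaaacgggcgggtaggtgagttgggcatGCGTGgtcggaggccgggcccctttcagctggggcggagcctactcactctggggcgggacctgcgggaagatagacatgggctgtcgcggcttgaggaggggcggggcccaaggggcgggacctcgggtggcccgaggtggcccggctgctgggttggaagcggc
ADM: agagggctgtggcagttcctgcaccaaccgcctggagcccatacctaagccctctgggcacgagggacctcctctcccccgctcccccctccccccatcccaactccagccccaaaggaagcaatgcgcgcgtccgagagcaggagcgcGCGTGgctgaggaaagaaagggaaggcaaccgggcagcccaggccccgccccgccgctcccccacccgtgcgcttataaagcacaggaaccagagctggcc
BNIP3: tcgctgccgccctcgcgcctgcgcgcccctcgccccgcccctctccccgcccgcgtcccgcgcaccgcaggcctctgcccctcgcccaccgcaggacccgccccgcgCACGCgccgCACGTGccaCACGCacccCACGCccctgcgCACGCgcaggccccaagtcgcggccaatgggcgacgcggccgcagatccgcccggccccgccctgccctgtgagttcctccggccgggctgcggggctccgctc
LDHA: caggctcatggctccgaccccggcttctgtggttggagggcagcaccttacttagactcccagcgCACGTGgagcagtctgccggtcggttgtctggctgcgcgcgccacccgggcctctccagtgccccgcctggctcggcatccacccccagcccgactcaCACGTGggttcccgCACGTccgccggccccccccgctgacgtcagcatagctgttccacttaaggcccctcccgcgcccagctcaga
HK3: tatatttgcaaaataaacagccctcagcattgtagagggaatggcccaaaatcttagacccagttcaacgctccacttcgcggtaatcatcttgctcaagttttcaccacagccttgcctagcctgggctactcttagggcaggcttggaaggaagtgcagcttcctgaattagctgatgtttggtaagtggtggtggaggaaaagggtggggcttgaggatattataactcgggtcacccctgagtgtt
The window of LDHA held 5 cores, those of PFKFB4 and ADM held 1 each, and that of HK3 held 0.

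Levels were compared between isoenzymes per length, as rlog minus the log2 of the length in kb of the longest principal transcript in GENCODE 29, and the order of each family named was the same with the length of all exons. Among the hexokinases, which add the first phosphate to glucose, HK2 had 8.12 in sgRNA1, 8.12 in sgRNA2 and 8.20 in control cells, HK1 had 7.59, 7.54 and 7.45 in these groups, and HK3 had 4.51, 4.54 and 4.15. HK2 thus led in every group and HK3 was by far the lowest hexokinase. The muscle form of phosphofructokinase PFKM had a level per length of 2.77, 2.73 and 2.75 in sgRNA1, sgRNA2 and control cells and stayed far below the liver form PFKL, which had 10.36, 10.34 and 10.34. ALDOA exceeded the brain form ALDOC, with 13.60, 13.68 and 13.70 against 8.07, 8.23 and 8.08 per length in the same 3 groups. The remaining phosphofructokinase PFKP had 9.60, 9.58 and 9.57 per length. PFKM was thus far below PFKL and PFKP, and ALDOC was far below ALDOA. ENO1 likewise exceeded the neuronal enolase ENO2, with 14.00, 13.99 and 13.90 against 5.84, 5.85 and 5.78. LDHB, the heart form of lactate dehydrogenase, had 13.05, 13.08 and 13.08 per length, and LDHA, the form that favours lactate, had 12.37, 12.39 and 12.57. Both lactate dehydrogenases were thus abundant. Of the glucose transporters, SLC2A3 (GLUT3) had 8.78, 8.82 and 8.72 per length and SLC2A1 (GLUT1) had 7.76, 7.79 and 7.76. Genes such as GAPDH, PGK1, ENO1, TPI1, PKM, ALDOA and LDHA have processed pseudogenes of near-identical sequence, so that their levels depend on how reads with several matches were counted, which is not given in the sources used here.

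The first comparison asked whether loss of YBX1 changed these genes. A total of 36 members had a mean level of at least 4 and were tested with limma, with Benjamini-Hochberg adjustment over all 10982 genes tested. P4HA2 and EGLN3, with mean levels of 2.05 and 1.48, were not tested. No member passed an adjusted p of 0.05 for both guides against control, for sgRNA1 or for sgRNA2, where 0.1%, 0.0455% and 0.0364% of all genes tested passed. At an unadjusted p under 0.05, HK3 and PFKFB3 were higher with both guides (2 members, against 7.48% of all genes tested) and with sgRNA1 (2 members, against 5.5%), HK3 was higher with sgRNA2 (1 member, against 5.35%), and 0 members were lower. The median difference between both guides and control was 0.00 over the 36 members and -0.01 over all genes tested, and single members ranged from -0.19 for LDHA to 0.37 for HK3. Of the enzymes 8 had a positive and 10 a negative difference, but 12 of the 18 were positive after quantile scaling.

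**Figure D1:**
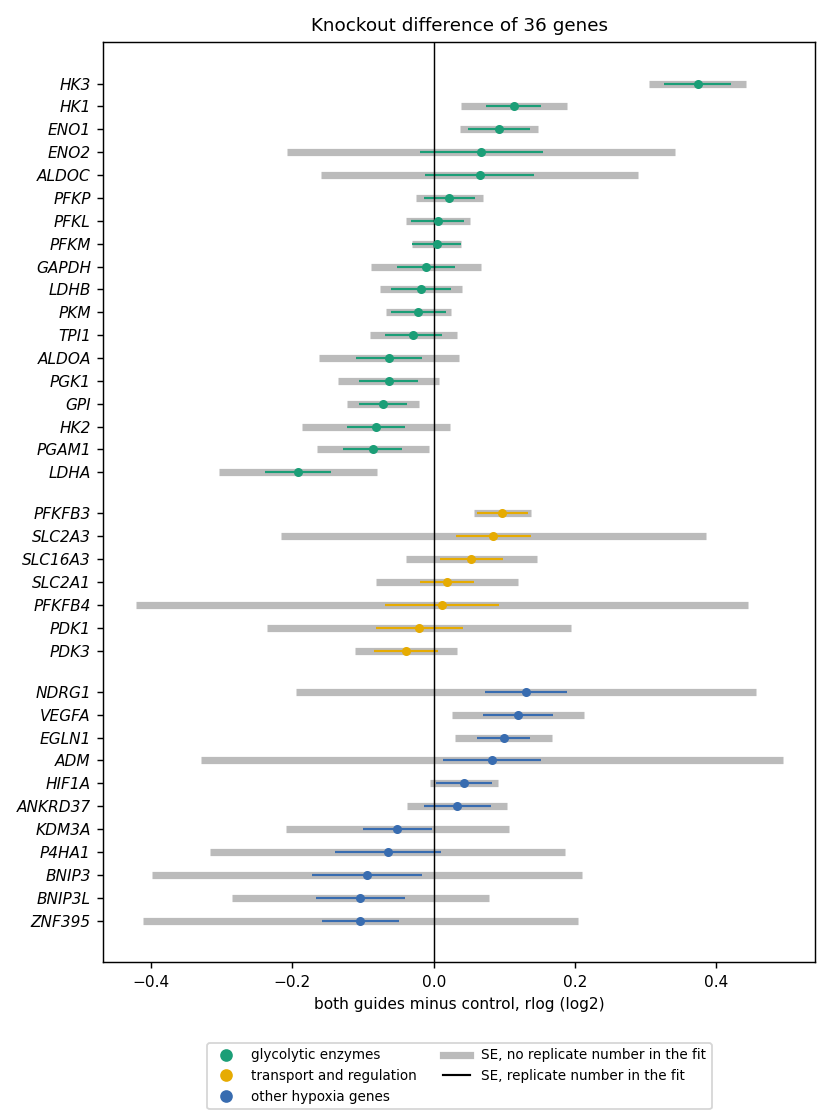
Difference between both YBX1 guides and control for the 36 genes tested (horizontal axis, rlog on the log2 scale), in groups by role. Thick grey bars are standard errors without the replicate number in the fit and thin bars those with it; HK3 at 0.37 and LDHA at -0.19 lie furthest from 0, and the widest grey bars belong to PFKFB4, ADM and other hypoxia genes.

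Libraries of the 3 groups that carry the same replicate number deviated together, so each difference was also fitted with the number as a block. The match by number was not clean between numbers 3 and 4. There sgRNA2 number 3 correlated at 0.746 with control number 4 and at 0.728 with sgRNA1 number 4. With control number 3 and sgRNA1 number 3 it correlated at only 0.383 and 0.532. With the block 2 of 36 members passed for both guides, HK3 upwards and LDHA downwards, where 5.4% of all genes tested passed (2.53% upwards and 2.87% downwards). The same 2 members passed for sgRNA1, where 3.21% of all genes passed (1.37% upwards and 1.83% downwards), and HK3 alone for sgRNA2, where 3.95% passed (2.17% upwards). The share of members called was thus near that of all genes.

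HK3 (ENSG00000160883.10, chr5:176880869-176899332 on the reverse strand, GRCh38) encodes the hexokinase that is typical of myeloid cells. Its levels were 6.30, 5.88, 6.15 and 6.17 in sgRNA1 libraries and 6.25, 6.10, 6.21 and 6.07 in sgRNA2 libraries, against 5.80, 5.64, 5.76 and 5.87 in control libraries. Every knockout library lay above every control, with sgRNA1 number 2 only just above the highest control; 0.419% of all genes tested had all 8 knockout libraries above the 4 controls, and 0.792% had all 8 below, which held for 0 members. HK3 averaged 6.12 ± 0.18 in sgRNA1, 6.16 ± 0.08 in sgRNA2 and 5.77 ± 0.10 in control libraries (SD, n = 4 each). The difference of both guides from control was 0.37 (SE 0.069), with an adjusted p from limma of 0.060, and of 0.000134 with the block. For sgRNA1 the difference was 0.36 (adjusted p = 0.241 without and 0.000447 with the block, limma). For sgRNA2 it was 0.39 (adjusted p = 0.237 without and 0.00031 with the block, limma). HK3 was thus called with the block for each guide and without it for neither. The blocked call held each time when single libraries or numbers were omitted (16 of 16 fits), with a highest adjusted p of 0.0063 for both guides together, 0.0199 for sgRNA1 and 0.00489 for sgRNA2. Without the block HK3 passed for both guides once sgRNA1 number 2 was left out (0.41, adjusted p = 0.0081).

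Markers of myeloid cells were read beside HK3. Of 8 tested with the block, CSF1R (0.25, adjusted p = 0.0439) and ITGAM (0.24, adjusted p = 0.0148) were higher with both guides by limma, where 2.53% of all genes passed upwards. MPO, a granule enzyme of immature myeloid cells, was lower (-0.42, adjusted p = 2.6e-05), where 2.87% passed downwards. CD33, SPI1, CEBPA, LYZ and FLT3 did not pass, and none of the 8 passed without the block. For sgRNA1 alone, CSF1R and ITGAM did not pass with the block (adjusted p = 0.200 and 0.0937, limma). For sgRNA2 they did (0.0151 and 0.00277). The summed level of the 10 myeloid markers ranged from 13.92 to 14.08 in sgRNA1, from 13.98 to 14.09 in sgRNA2 and from 13.80 to 14.07 in control libraries. Their part in the difference of HK3 was not tested.

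LDHA (ENSG00000134333.13, chr11:18394388-18408425 on the forward strand, GRCh38), which reduces pyruvate to lactate, had levels of 13.38, 13.53, 13.77 and 13.88 in sgRNA1 libraries and of 13.43, 13.44, 13.90 and 13.90 in sgRNA2 libraries, against 13.62, 13.88, 13.90 and 13.98 in control libraries. The groups overlapped, as control number 1, at 13.62, lay below the knockout libraries numbered 3 and 4, at 13.77 to 13.90. Knockout libraries numbered 1 and 2 lay below every control, and libraries numbered 3 and 4 were high in all groups. Each knockout library was nonetheless below the control of its own number, by 0.01 to 0.43; this held for 6.25% of all genes tested. The fitted difference of both guides was -0.19 (SE 0.112, adjusted p = 0.765 by limma), and with the block its SE was 0.047 and its adjusted p 0.0218. LDHA was thus called only with the block. For sgRNA1 the blocked difference was -0.21 (adjusted p = 0.0329) and for sgRNA2 it was -0.18 (adjusted p = 0.0585), which does not pass. With single libraries or numbers omitted, the blocked call for both guides held in 11 of 16 fits and was lost without number 1 (adjusted p = 0.154), number 2 (0.183, with the difference at -0.12), control number 1 (0.107), control number 2 (0.137, also with -0.12) and sgRNA1 number 1 (0.0506). For sgRNA1 alone it held in 7 of 16 fits, and was lost without number 1 (adjusted p = 0.230), 2 or 4, without control number 1 or 2 and without any 1 of the 4 sgRNA1 libraries. For sgRNA2 alone LDHA passed with the block without number 3, control number 3, control number 4 or sgRNA2 number 3. In the other fits of this kind it did not pass for sgRNA2. LDHB had a difference of -0.02 and did not pass in either fit.

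**Figure D2:**
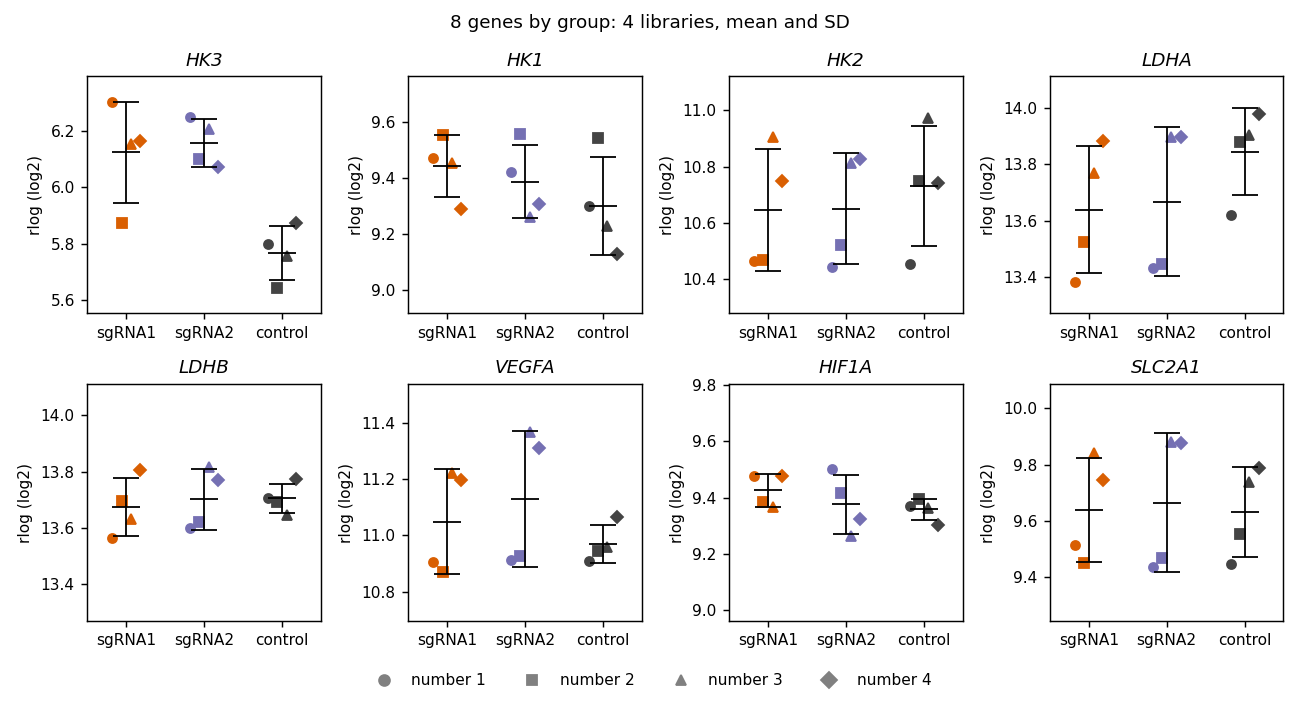
Levels (rlog, log2) of 8 genes in sgRNA1, sgRNA2 and control libraries, 1 symbol a library with its shape giving the replicate number, and bars for the mean and SD of 4 libraries. For HK3 all knockout libraries lie above the controls, for LDHA libraries 1 and 2 of both guides lie low, and for VEGFA libraries 3 and 4 of both guides lie above all controls.

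The other hexokinases did not pass in either fit with all libraries. HK1, the form found in most tissues, was above the control of its own number in all 8 knockout libraries, as were 4.33% of all genes tested, and differed by 0.11 (SE 0.075). Its adjusted p was 0.813, and 0.0963 once the block was added. HK2, the inducible form that leads in these cells, had a difference of -0.08. Of the enzymes between glucose phosphate and pyruvate, differences of both guides from control ran from -0.09 for PGAM1 and -0.07 for GPI to 0.09 for ENO1. PGK1 and ALDOA had -0.06 each, TPI1 -0.03, PFKP 0.02, and ENO2 0.07. GAPDH had -0.01, PKM -0.02 and PFKL 0.01, and the signs for GAPDH, PKM, ALDOA, TPI1, PFKM and LDHB changed with quantile scaling or median centring. Without sgRNA2 number 3 the blocked fit passed 5 members for both guides, with HK1 and EGLN1 joining HK3 upwards and PGAM1 joining LDHA downwards, where 4.23% of all genes passed upwards and 5.04% downwards.

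Among transporters and regulators none passed with all libraries. The largest difference was that of PFKFB3, which makes the activator of phosphofructokinase, at 0.10 (SE 0.040), with an adjusted p of 0.609 (blocked, 0.117). SLC2A1, the glucose transporter GLUT1, had levels of 9.52, 9.45, 9.84 and 9.75 in sgRNA1 and of 9.44, 9.47, 9.88 and 9.88 in sgRNA2 libraries, against 9.45, 9.55, 9.74 and 9.79 in control libraries. Its groups overlapped and its difference was 0.02 (SE 0.10). The neuronal-type glucose transporter SLC2A3 had a difference of 0.08 and PFKFB4 one of 0.01. The lactate exporter SLC16A3 had a difference of 0.05, and the pyruvate dehydrogenase kinases PDK1 and PDK3, which inhibit the conversion of pyruvate to acetyl-CoA, had -0.02 and -0.04.

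Of the hypoxia genes none passed for a guide with all libraries, with or without the block. HIF1A, the mRNA of the regulated HIF subunit, had levels of 9.48, 9.38, 9.37 and 9.48 in sgRNA1 and of 9.50, 9.41, 9.26 and 9.32 in sgRNA2 libraries, against 9.37, 9.39, 9.36 and 9.30 in control libraries. It varied little and its difference was 0.04 (SE 0.048). VEGFA, the growth factor for blood vessels (chr6:43770184-43786487, GRCh38), had levels of 10.91, 10.87, 11.22 and 11.20 in sgRNA1 and of 10.91, 10.93, 11.37 and 11.31 in sgRNA2 libraries, against 10.91, 10.94, 10.96 and 11.06 in control libraries. Libraries 1 and 2 of both guides were level with control, and libraries 3 and 4 of both guides were above every control. Its difference over all libraries was 0.12 (SE 0.093), with an adjusted p of 0.874 (blocked, 0.165). NDRG1 had the highest difference of the hypoxia genes at 0.13, and ZNF395 and BNIP3L had the lowest at -0.10 each. The remaining hypoxia genes lay between, with 0.10 for EGLN1, the prolyl hydroxylase that marks HIF-1alpha for destruction, 0.08 for ADM, 0.03 for ANKRD37, -0.05 for the histone demethylase KDM3A and -0.09 for BNIP3.

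The guides were compared with each other as well, since sgRNA1 left less YBX1 mRNA than sgRNA2. No member differed between sgRNA2 and sgRNA1 with or without the block, where 0.00911% of all genes tested passed in each fit, and 0 members had an unadjusted p under 0.05, against 0.838%. For HK3 the difference of sgRNA2 from sgRNA1 was 0.03, with a 95% interval from -0.14 to 0.21 without the block and from -0.08 to 0.15 with it. For LDHA it was 0.03, with an interval from -0.26 to 0.32 without the block and from -0.08 to 0.14 with it. For ADM the difference was 0.10, and its interval ran from -0.96 to 1.16 without the block and from -0.06 to 0.25 with it.

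The second comparison was between replicate numbers, whose meaning the labels do not give. In an F test across the 4 numbers, with the groups in the model, 28 of 36 members passed, against 51.8% of all genes tested. These were 12 of 18 enzymes, 6 of 7 genes for transport and regulation and 10 of 11 hypoxia genes. The range of the 4 number means had a median of 0.72 for the hypoxia genes, 0.35 for transport and regulation and 0.24 for enzymes, against 0.17 over all genes tested. Of the 8 myeloid markers tested 6 passed as well, with a median range of 0.26. The members that did not pass were PFKL, PFKM, PFKP, ENO1, PKM, LDHB, PFKFB3 and HIF1A.

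**Figure D3:**
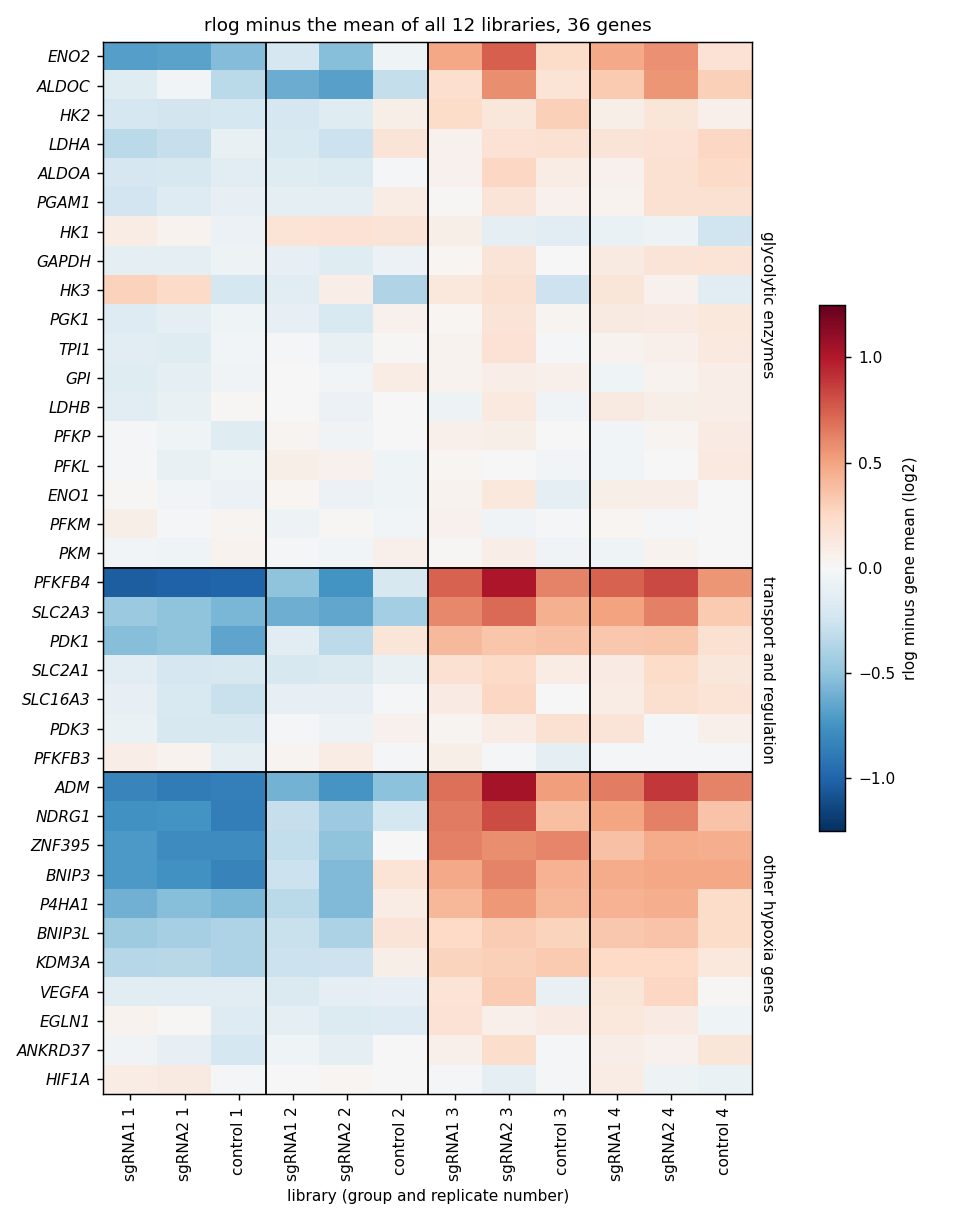
Level of each of the 36 genes tested (rows) in each of the 12 libraries (columns, in sets by replicate number with sgRNA1, sgRNA2 and control in each), as rlog minus the gene's mean on the log2 scale. Blue fields on the left and red fields on the right show lower levels in libraries numbered 1 and 2 and higher levels in those numbered 3 and 4 for most hypoxia genes, while rows such as PKM, PFKM and HIF1A stay pale.

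Most members were higher in libraries numbered 3 and 4 than in those numbered 1 and 2, in the control group as in both knockout groups. All 6 libraries numbered 3 and 4 lay above all 6 numbered 1 and 2 for 17 of 36 members, which held for 8.49% of all genes tested, and they lay below for 0 members, against 9.93% of all genes tested. By role these were 4 of 18 enzymes, 5 of 7 genes for transport and regulation and 8 of 11 hypoxia genes. The enzymes were ALDOA, ALDOC, GAPDH and ENO2, and the transport and regulation genes were SLC2A1, SLC2A3, SLC16A3, PFKFB4 and PDK1. The hypoxia genes were BNIP3, BNIP3L, P4HA1, ADM, NDRG1, VEGFA, KDM3A and ZNF395, so that EGLN1, ANKRD37 and HIF1A overlapped between the number sets. The median difference between these number sets was 0.59 for the hypoxia genes, 0.33 for transport and regulation and 0.12 for the enzymes, against -0.01 over all genes tested. Under quantile scaling 20 members and under median centring 17 members lay wholly above.

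PFKFB4, a regulator of phosphofructokinase with a strong response to hypoxia, varied most. Its levels were 6.96, 7.48, 8.73 and 8.72 in sgRNA1 libraries and 6.98, 7.25, 9.00 and 8.82 in sgRNA2 libraries, against 6.99, 7.79, 8.61 and 8.54 in control libraries. Numbers 3 and 4 together were 2.82-fold above numbers 1 and 2, and the number test gave an adjusted p of 1.05e-11 (limma). The 3 libraries numbered 1 were almost equal, and those numbered 2 were intermediate with the control highest.

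ADM, which encodes the vessel-dilating peptide adrenomedullin, had levels of 7.34, 7.57, 8.86 and 8.81 in sgRNA1 libraries and of 7.29, 7.43, 9.20 and 9.05 in sgRNA2 libraries, against 7.31, 7.66, 8.69 and 8.78 in control libraries. Its libraries 3 and 4 were 2.76-fold above libraries 1 and 2 in total (adjusted p of the number test 2.65e-12, limma), and within numbers 3 and 4 sgRNA2 was highest. NDRG1, a stress gene induced by hypoxia, had 10.05, 10.52, 11.46 and 11.31 in sgRNA1 libraries and 10.07, 10.36, 11.63 and 11.44 in sgRNA2 libraries, against 9.94, 10.59, 11.19 and 11.17 in control libraries. It was 2.16-fold higher in numbers 3 and 4, and both guides exceeded control in these numbers but not in number 2.

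**Figure D4:**
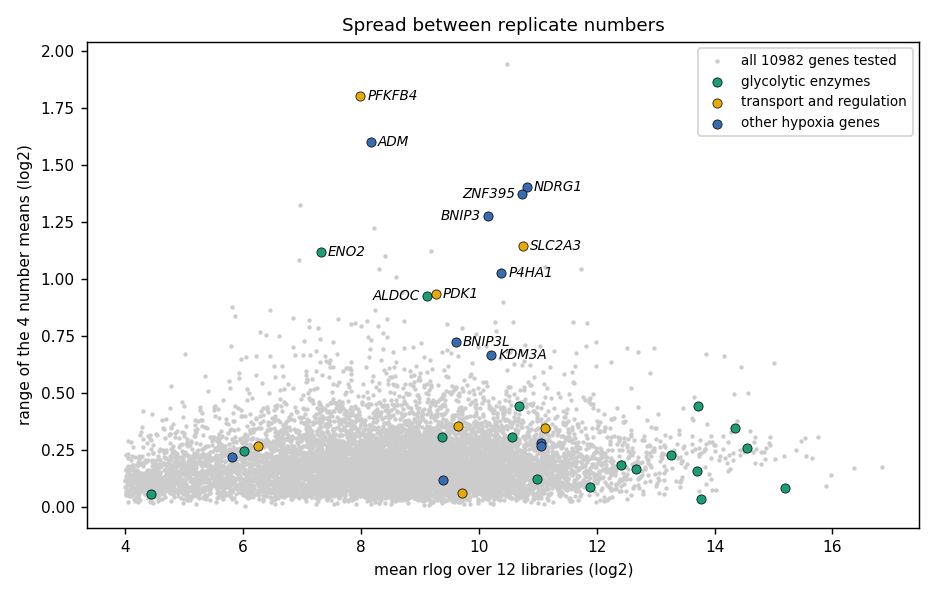
Range of the 4 number means (vertical axis, log2) against the mean level over 12 libraries (horizontal axis, rlog), for all 10982 genes tested in grey and for the members in colour by role. PFKFB4, ADM, NDRG1, ZNF395 and BNIP3 stand at ranges of 1.28 to 1.81, above nearly all other genes. All enzymes lie lower than these 5, with ENO2 at 1.12 and ALDOC at 0.92. HK2 is the highest of the other enzymes at 0.44, which is percentile 96.2 of all genes tested. The median range of the enzymes is 0.24, against 0.17 over all genes tested.

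ZNF395, a zinc finger gene induced by hypoxia, had 10.01, 10.42, 11.36 and 11.10 in sgRNA1 libraries and 9.94, 10.23, 11.31 and 11.19 in sgRNA2 libraries, against 9.94, 10.73, 11.34 and 11.18 in control libraries. BNIP3L, a receptor for removal of mitochondria, had 9.17, 9.33, 9.85 and 9.95 in sgRNA1 libraries and 9.19, 9.22, 9.92 and 9.97 in sgRNA2 libraries, against 9.23, 9.77, 9.88 and 9.84 in control libraries. For both genes the groups were close in numbers 1, 3 and 4 and control stood above both guides in number 2. BNIP3, the relative of BNIP3L, showed the same order in number 2, with 9.89 in sgRNA1, 9.60 in sgRNA2 and 10.33 in control, and P4HA1, a collagen prolyl hydroxylase, had 10.05, 9.83 and 10.47 in these libraries. Among the enzymes, the neuronal enolase ENO2 was 1.86-fold and ALDOC 1.64-fold higher in numbers 3 and 4, and the transporter SLC2A3 was 2.10-fold higher. PDK1 was 1.59-fold, P4HA1 1.78-fold, KDM3A 1.43-fold and VEGFA 1.21-fold higher. The abundant enzymes ALDOA, GAPDH and PGK1 moved less, at 1.23-fold, 1.16-fold and 1.14-fold. By the name of the table duplicate reads had been removed, which lowers abundant transcripts most, and its part in these values was not tested. HK1 went the other way at 0.874-fold. SLC2A1 was 1.26-fold and LDHA 1.27-fold higher, although libraries of LDHA from the number sets overlapped.

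**Figure D5:**
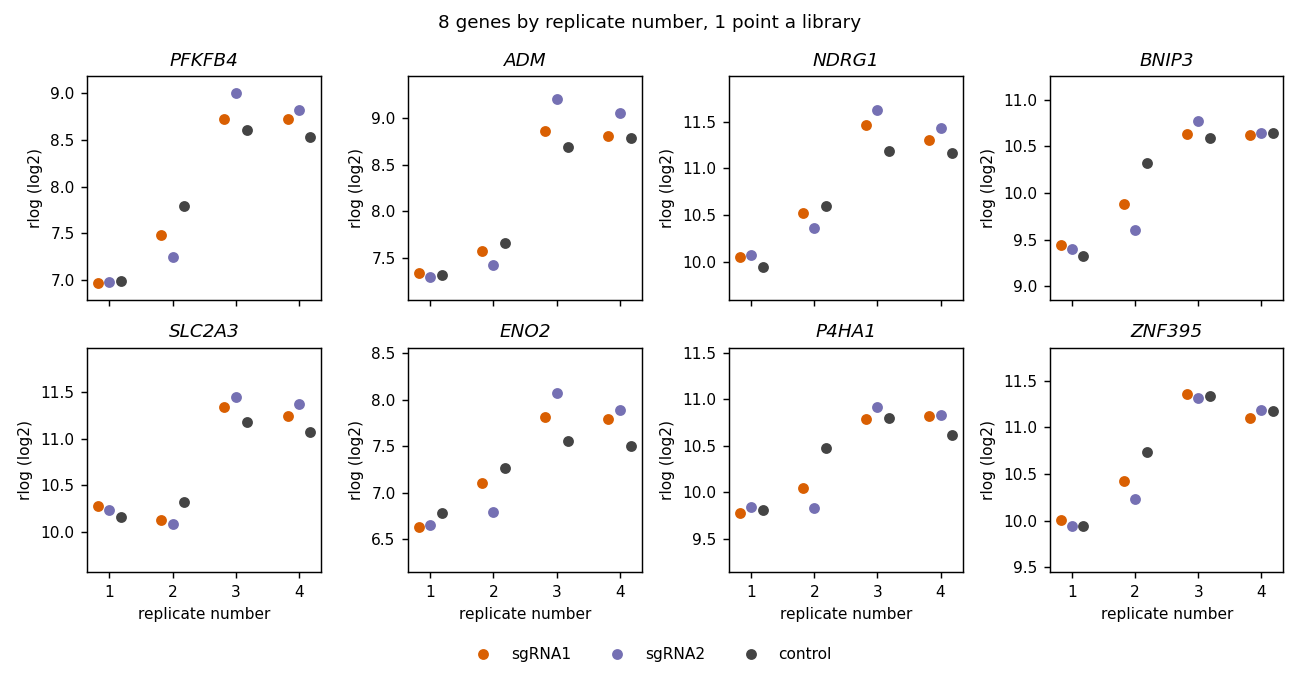
Levels (rlog, log2) of 8 genes against replicate number, 1 point a library, in sgRNA1, sgRNA2 and control cells. All panels span 2.4 log2 units; libraries 3 and 4 are high in every group, and in number 2 the control point lies above both guide points.

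Knockout and control libraries were also set side by side within each number. In number 2, control lay above both guides for 26 of 36 members, among them 9 of 11 hypoxia genes, against 38.3% of all genes tested, and below both for 4 (34.9%). In number 3, control lay below both guides for 20 of 36 members, against 33.3% of all genes, and above both for 4 (35.9%). In number 4 it lay below both for 17 of 36, against 36.5%, and above both for 11 (38.8%). In number 1, control lay below both guides for 17 members (37% of all genes) and above both for 12 (44.4%). Each of these counts rests on 1 control library.

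Pairs of numbers were also fitted apart, with 2 libraries a group. In libraries numbered 1 and 2, the difference of both guides from control was negative for 8 of 11 hypoxia genes with a median of -0.08, and no member passed for both guides, sgRNA1 or sgRNA2, where 0.00911%, 0.0273% and 0.00911% of all genes passed. In libraries numbered 3 and 4, it was positive for 10 of 11 hypoxia genes with a median of 0.06, and HK3 passed for both guides together (0.33, adjusted p = 0.0271, limma), as did 0.446% of all genes upwards. Medians over all genes tested were -0.01 in both fits. For sgRNA2 against control in numbers 3 and 4, 7 members were called and all were higher, against 0.938% of all genes tested that passed upwards.

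These 7 genes were ENO2 (0.45, adjusted p = 0.0106, limma), ADM (0.39, 0.0201), PFKFB4 (0.34, 0.0474), NDRG1 (0.36, 0.0443), ALDOC (0.33, 0.0445), VEGFA (0.33, 0.0301) and HK3 (0.32, 0.0452). For sgRNA1 in the same numbers 0 members were called, against 0.437% of all genes, with differences of 0.27 for ENO2, 0.10 for ADM, 0.15 for PFKFB4, 0.21 for NDRG1, 0.04 for ALDOC, 0.20 for VEGFA and 0.34 for HK3 (adjusted p = 0.0555). In numbers 1 and 2 the differences of sgRNA2 were -0.30 for ENO2, -0.13 for ADM, -0.28 for PFKFB4, -0.06 for NDRG1, -0.04 for ALDOC, -0.01 for VEGFA and 0.46 for HK3, and none passed. HK3 was thus the only 1 of the 7 with a positive difference of sgRNA2 in both pairs of numbers. Standard errors of sgRNA2 were larger in numbers 1 and 2 than in 3 and 4 for these genes other than VEGFA. They were 0.24 against 0.076 for PFKFB4 and 0.20 against 0.078 for NDRG1, but 0.055 against 0.067 for VEGFA. A lack of calls in numbers 1 and 2 is thus weak evidence of no difference there. Whether the number pairs differ in the effect of a guide was not tested. Leaving out control number 2 from the blocked fit passed HK3, NDRG1 and SLC2A3 for both guides, where 2.38% of all genes passed upwards, and LDHA was then no longer called.

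Related genes outside the 38 were read from lists of 32 other glycolysis genes and 40 other hypoxia genes. Without the block 0 of the 17 glycolysis and 0 of the 30 hypoxia genes tested passed for both guides. With the block, where 2.53% of all genes tested passed upwards and 2.87% downwards, 1 of the 17 glycolysis genes passed, PGM1, which links glucose phosphate to glycogen, at -0.21 (adjusted p = 0.0099, limma). Of the 30 hypoxia genes 4 passed upwards with the block, the chemokine receptor CXCR4 (0.25), EPAS1 (0.19), which encodes HIF-2alpha, BHLHE40 (0.15) and CITED2 (0.14), and 1 downwards, SLC7A11 (-0.25), a cystine transporter. The number test passed 23 of these 30 hypoxia genes (76.7%) and 8 of the 17 glycolysis genes (47.1%), against 51.8% of all genes tested. Libraries 3 and 4 lay wholly above libraries 1 and 2 for 12 of the hypoxia and 2 of the glycolysis genes, where 8.49% of all genes did, and wholly below for 2 of the hypoxia and 4 of the glycolysis genes, where 9.93% did. The median difference between these number sets was 0.23 for the other hypoxia genes and -0.04 for the other glycolysis genes.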

How the data were processed

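RNA-seq libraries of poly(A) RNA (37 bp paired ends) were compared between sgRNA1, sgRNA2 and control cells (4 libraries each). The authors deposited rlog values, regularised log2 counts from DESeq2, per library. The submitters' processing notes name the GRCh38 build and, among other tools, STAR 2.7.5a, HTSeq 0.6.1pl and Picard 2.9.4. By the name of the table duplicate reads had been removed, which lowers abundant transcripts most, and rlog shrinks differences of weakly expressed genes. Annotation and parameters are not given in the sources used here. Deposited fold changes, p-values and scaled scores were not used.

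Genes with a mean rlog of at least 4 were tested with limma 3.58.1 in R 4.3.3 (eBayes with trend), and two-sided p-values were adjusted over 10982 genes (Benjamini-Hochberg, threshold 0.05). Both guides were tested in a 2-level model, each guide in a 3-group model, and the replicate numbers 1 to 4 by an F test with group. Deviations of same-numbered libraries correlated at 0.383 to 0.783 over 12 pairs, so the numbers were taken to pair libraries, on the data alone. The 36 other pairs gave -0.738 to 0.746, the highest for sgRNA2 number 3 with control number 4. The block added the number to each model. Alternatives were filters, scalings, eBayes settings and left-out libraries. Scripts were tested on simulated data. GENCODE 29 gave coordinates, matching 29 of 38 identifiers with their version and all 38 without. Python 3.11.15 with pandas 2.3.3 was used.

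Members and lists were chosen with earlier results of these data known. Values per library are given for members that passed in a guide comparison, the 3 highest and 3 lowest differences of both guides, the 3 largest ranges of number means, and HK3, LDHA, HIF1A, VEGFA and SLC2A1. HK1, BNIP3, P4HA1, ENO2, ALDOC and SLC2A3 were singled out after their values were seen.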

Additional observations from a re-analysis of the deposited data

Results flagged for a closer look

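PFKL, the liver form of phosphofructokinase, had a level of 12.01 (rlog) in control number 4, far from the other 3 controls, which lay between 11.84 and 11.86. Its gap to the nearest of them was 0.859 of the range of the group, above Dixon's critical value for 4 samples. It was the only such case among 108 sets of 4 libraries checked (36 genes in 3 groups). Chance alone would give about 5.4 if the 4 values were independent draws of 1 distribution. Most members differed between replicate numbers, so that figure does not apply and nothing is concluded from the lower count.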

How the results depend on the processing

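The count of members called for a guide depended on the replicate block. With it 2 members passed for both guides, 2 for sgRNA1 and 1 for sgRNA2, against 0 without, and quantile scaling with the block also gave 2 for both guides. With the block, leaving out each library or number gave 1 to 5 members for both guides, 1 to 5 for sgRNA1 and 1 to 5 for sgRNA2, the highest counts coming without sgRNA2 number 3 (both guides, sgRNA1) and without control number 2 (sgRNA2). Without the block, leaving out each library gave 0 or 1 for both guides and sgRNA1, with HK3 called without sgRNA1 number 2, and 0 for sgRNA2. Libraries numbered 3 and 4 alone gave 1 member for both guides and 7 for sgRNA2, and those numbered 1 and 2 gave 0. Filters, scalings, eBayes settings and the 3-group model without the block left all these counts at 0. The block changed no call for sgRNA2 against sgRNA1. The number test passed 25 to 31 members over its alternatives; HK3 lost its call there without the filter (adjusted p = 0.0675, limma), without sgRNA1 number 1 (0.0592) and without sgRNA1 number 2 (0.176). Without the block HK3 ranged from 0.33 to 0.41 for both guides over left-out libraries. No direction was turned for HK3 or LDHA. The cause of these dependences was not tested. Alternatives with the block that left out single libraries, or used quantile scaling, were chosen after seeing the data. Only rlog values were used, so counting error is unknown.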
